A study of Rattus norvegicus with 6 samples.

Results

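The 10 miRNAs described here were each taken as a marker of 1 tissue or cell lineage. They were read as a check on which cells the cultured rat tendon-derived stem cells (rTDSCs) contained. They are rno-miR-1, rno-miR-133a and rno-miR-206 of muscle, rno-miR-124 and rno-miR-9 of neural cells, rno-miR-122 of liver, rno-miR-142-3p and rno-miR-451 of blood cells, rno-miR-126 of endothelium and rno-miR-200c of epithelium. They were taken by exact name, with no threshold on their signal, and all 10 were found among the 677 rat miRNAs on the array. Of the 10, rno-miR-126 was detected on all 6 arrays and the other 9 were detected on none.

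The rTDSCs came from the patellar tendons of 8-week-old male Sprague Dawley rats and were used at passage 3. Cells of the mechanical loading group were stretched along 1 axis on collagen I-coated flexible plates, by 10% at 0.5 Hz for 8 hours per day over 7 days, whereas cells of the non-loading group were kept static for the same 7 days. Each group had 3 samples, total RNA of each was hybridised to 1 one-colour Agilent array, and all 6 arrays lay on 1 slide. Row 1 of the slide held all 3 non-loading arrays and mechanical loading replicate 1. Row 2 held mechanical loading replicates 2 and 3, so slide row and loading were partly confounded. No marker sort is described for these cells, which were grown from colonies after non-adherent cells had been washed away on day 2, and the labels do not say whether the 3 samples of a group came from separate animals or cultures, so that the p-values below measure only the spread between these samples.

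A miRNA is a short RNA that is loaded into an Argonaute protein and pairs, mainly through the seed at its bases 2 to 8, with target mRNAs that are then repressed. Most miRNAs are shared by many cell types, but a few are transcribed almost only in 1 lineage, often from the intron of a gene of that lineage or together with a clustered partner, and reach very high copy numbers there. For that reason such miRNAs are widely used to recognise admixed cells in an RNA sample. Tendon links muscle to bone and carries vessels, blood cells and nerve endings, and these are the sources that the muscle, endothelial, blood and neural miRNAs would report, whereas the liver and epithelial miRNAs stand for lineages that tendon does not hold.

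The mature sequences are shown because the muscle members resemble each other. Sequences were taken by name from the RefSeq miRNA table of assembly GRCr8, in which 9 of the 10 members were matched, and the arm was assigned from the naming convention (rno-miR-9 as miR-9a-5p, for example). They were not compared with the probe sequences. The seed is in capitals and the remainder in lower case, 5′ to 3′.
rno-miR-1 (rno-miR-1-3p): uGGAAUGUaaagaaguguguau
rno-miR-133a (rno-miR-133a-3p): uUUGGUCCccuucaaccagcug
rno-miR-206 (rno-miR-206-3p): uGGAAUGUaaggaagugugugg
rno-miR-9 (rno-miR-9a-5p): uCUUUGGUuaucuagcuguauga
rno-miR-122 (rno-miR-122-5p): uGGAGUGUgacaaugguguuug
rno-miR-142-3p: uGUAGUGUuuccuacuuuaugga
rno-miR-451 (rno-miR-451-5p): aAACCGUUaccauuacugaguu
rno-miR-126 (rno-miR-126a-3p): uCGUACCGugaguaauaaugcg
rno-miR-200c (rno-miR-200c-3p): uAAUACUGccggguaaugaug
rno-miR-124 is named only. The 9 sequences held 8 distinct seeds. rno-miR-1 and rno-miR-206, which restrain proliferation and favour differentiation of muscle cells, had the seed GGAAUGU in common and were identical at 19 of 22 bases. Counted from 1 at the 5′ end of rno-miR-1, their differences were A11G, A21G and U22G. How far the probes of 1 also read the other was not tested.

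The table also places the members in the genome, on an assembly newer than that of the array annotation, and these positions entered no test. rno-miR-1 (GRCr8 chr18:2160339-2160360, minus strand) and rno-miR-133a (chr18:2157886-2157907, minus strand) were neighbours within the span of the protein-coding gene Mib1. rno-miR-206 (chr9:30590747-30590768, plus strand) lay beside Mir133b, inside a long non-coding RNA. rno-miR-9 had 3 loci, at chr1:142849415-142849437, chr2:15933307-15933329 and chr2:175974986-175975008, all on the plus strand, so that its signal cannot be assigned to 1 of them.

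rno-miR-122 was at chr18:61028831-61028852 on the plus strand. rno-miR-142-3p was at chr10:73055155-73055177 on the plus strand, within the span of Tspoap1. rno-miR-451 was at chr10:63459585-63459606 on the plus strand, beside its partner Mir144, with which it is made in red cell precursors. rno-miR-126 was at chr3:29813219-29813240 on the plus strand, within the span of Egfl7, a gene known for its expression in endothelium. The table files this sequence, miR-126a-3p, under the symbol Mir126b with Mir126a beside it, so which of the hairpins the position belongs to is uncertain. rno-miR-200c was at chr4:159209969-159209989 on the minus strand, beside Mir141, the other member of its cluster.

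Each array held 13540 miRNA spots and, apart from these, 434 negative-control spots made of 7 control probes. No miRNA spot was saturated. The scanner software detected 140 to 186 miRNAs per array, where detected means that the summed signal of a miRNA exceeded 3 times its error. The negative-control spots had a mean intensity of 2.84 to 4.09 scanner units and an SD of 1.80 to 2.28, with non-loading replicate 3 the lowest in mean. Spots of miRNAs that were detected nowhere averaged still less, from -3.74 to -0.79 units, so the negative controls were the stricter of the 2 backgrounds. A list of 10 miRNAs usual in mesenchymal cells, among them rno-miR-199a-3p, rno-miR-199a-5p and rno-miR-214, describes the cells but is no independent check, since earlier results of these arrays were known. Of these, 9 were detected on all 6 arrays and 1, rno-miR-145 (named after its values were seen), on 3 of them, at -0.27 to 1.32 SDs of the control spots from their mean, and 1088 of their 1200 spots (90.7%) were well above background.

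Detection set the list apart into 1 and 9. rno-miR-126 was the 1 member of 10 detected on every array, beside 133 of 677 miRNAs (19.6%) over the whole array. The 9 others were detected on no array, beside 487 of 677 (71.9%). Each member was read by 2 probes of 10 spots per array, that is by 120 spots in all. Of 1200 spots, 39 (3.25%) were called well above background by the scanner software, and 35 of these belonged to rno-miR-126. The other 4 were single spots of rno-miR-206, rno-miR-124, rno-miR-122 and rno-miR-451, with intensities of 9.64 to 44.0 units, and all 4 carried the software's outlier flag. rno-miR-1, rno-miR-133a, rno-miR-9, rno-miR-142-3p and rno-miR-200c had no such spot. For the 9 members together this came to 0.370% of 1080 spots, against 0.481% over all miRNAs detected nowhere.

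To place every member on 1 scale, the mean of its probes was set against the negative-control spots of the same array and divided by their SD. A distance of 0 is then the mean of the controls, and the distances over 6 arrays were tested against 0 with limma across all 677 miRNAs. At an adjusted p under 0.05, 159 miRNAs (23.5%) lay above the controls and 493 (72.8%) below. Of the 10 members 1 lay above and 9 lay below. Of the 487 miRNAs detected on no array, 480 lay below too. For an undetected member a place below the controls, with its p-value, therefore adds little to the detection call. A place below the controls is a bound on the signal and gives no amount of the miRNA.

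**Figure D1:**
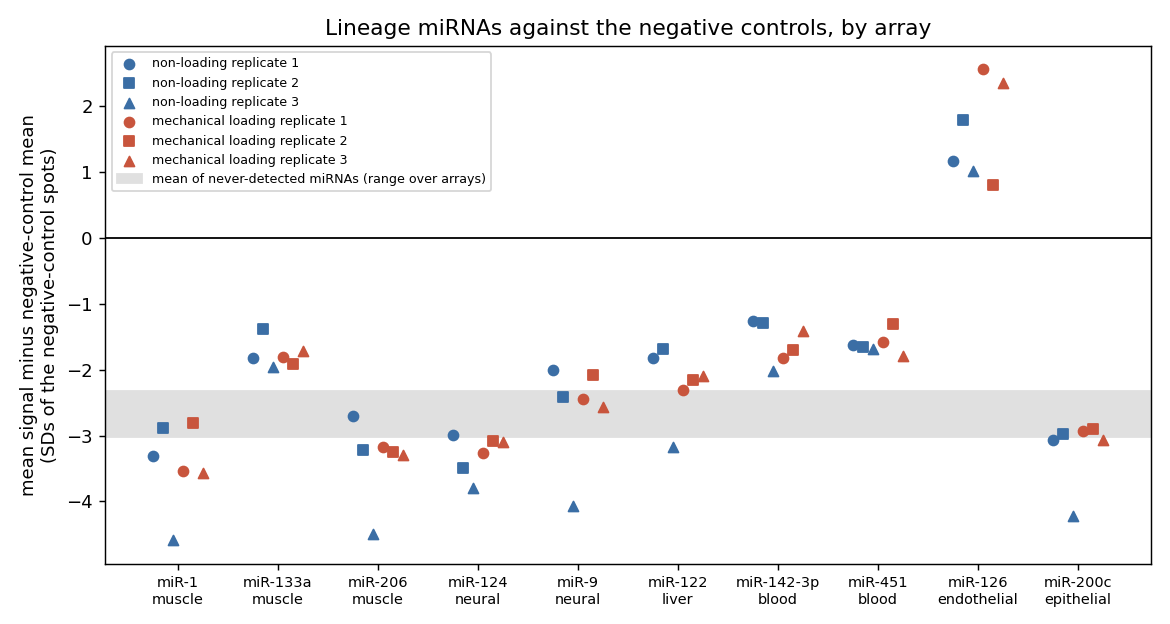
Distance of the 10 lineage miRNAs from the negative controls on each of 6 arrays, in SDs of the control spots (vertical axis; 0 is the control mean), coloured by group with 1 symbol per replicate; the grey band spans the array means of miRNAs detected nowhere. rno-miR-126 sits at 0.80 to 2.55 SDs on all arrays, and the 9 other members sit below 0 on all of them.

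The muscle members are the closest test for tissue adjoining tendon. rno-miR-1, made in heart and skeletal muscle, lay at -3.31, -2.89 and -4.59 SDs on the non-loading arrays and at -3.54, -2.81 and -3.57 SDs on the mechanical loading arrays. All 6 values were below the controls, and non-loading replicate 3 was the lowest. The mean distance was -3.45 SDs (standard error, SE, 0.239; limma adjusted p = 7.65e-06). rno-miR-206, which is restricted to skeletal muscle, lay at -2.70, -3.23 and -4.49 SDs without loading and at -3.17, -3.25 and -3.29 SDs with it. The 3 loading arrays fell inside the range of the 3 non-loading arrays. rno-miR-133a, the partner of rno-miR-1, lay at -1.83, -1.39 and -1.96 SDs without loading and at -1.80, -1.91 and -1.71 SDs with it. Here too the groups overlapped, with a mean of -1.77 SDs (SE 0.116, limma adjusted p = 6.46e-06).

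The neural members were placed likewise. rno-miR-124, the most abundant miRNA of neurons, lay at -2.99, -3.49 and -3.79 SDs on the non-loading arrays and at -3.27, -3.09 and -3.09 SDs on the loading arrays. rno-miR-9, which is made in neural progenitors and acts in neurogenesis, lay at -2.003, -2.41 and -4.06 SDs without loading and at -2.44, -2.08 and -2.56 SDs with it. Both were below the controls on all 6 arrays, both had overlapping groups, and both were lowest on non-loading replicate 3. rno-miR-122, the dominant miRNA of hepatocytes, lay at -1.82, -1.69 and -3.18 SDs without loading and at -2.30, -2.16 and -2.10 SDs with it.

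Among the blood members, rno-miR-142-3p is made throughout the haematopoietic lineage and rno-miR-451 is a hallmark of red cells. rno-miR-142-3p lay at -1.26, -1.29 and -2.03 SDs on the non-loading arrays and at -1.82, -1.71 and -1.41 SDs on the loading arrays. rno-miR-451 lay at -1.63, -1.66 and -1.69 SDs without loading and at -1.58, -1.31 and -1.80 SDs with it. No array brought either of them to the controls. rno-miR-200c, which keeps the epithelial state by repressing ZEB factors, lay at -3.06, -2.98 and -4.21 SDs without loading and at -2.93, -2.90 and -3.07 SDs with it. Over the 9 undetected members, none of 108 probe means (18 probes on 6 arrays) reached the control mean of its array. No unflagged spot of theirs, of 1054, exceeded the 99th percentile of the negative controls.

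Against the other background, the spots of miRNAs detected nowhere, the calls differed. That background includes the spots of the 9 undetected members themselves, so it is no outside reference for them. This comparison was added after the data had been seen, and over the array 326 of 677 miRNAs (48.2%) lay above it and 200 (29.5%) below. Besides rno-miR-126, 3 members then lay above, namely rno-miR-142-3p by 0.73 SDs (limma adjusted p = 0.000337), rno-miR-451 by 0.69 SDs (limma adjusted p = 0.000291) and rno-miR-133a by 0.57 SDs (limma adjusted p = 0.000807). rno-miR-1, rno-miR-206, rno-miR-124 and rno-miR-200c lay below, and rno-miR-9 and rno-miR-122 did not pass in either direction. The share of the array above this background, 48.2%, was larger than 4 members of 10. None of the 3 was detected by any of the 10 detection rules tried.

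rno-miR-126, which supports vascular integrity and signalling in endothelial cells, was dim. Its distance was 1.17, 1.78 and 1.01 SDs above the controls on the non-loading arrays and 2.55, 0.80 and 2.34 SDs on the mechanical loading arrays. All 6 arrays were above 0, the highest and the lowest both belonged to the loading group, and the groups overlapped. The mean was 1.61 SDs (SE 0.278, limma adjusted p = 0.00102). From the spots of miRNAs detected nowhere its mean distance was 3.29 SDs.

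The signal of rno-miR-126 came from 1 of its 2 probes. The mean intensity of the brighter probe was 10.51, 12.40 and 11.29 units on the non-loading arrays and 13.97, 10.50 and 15.45 units on the loading arrays, or 2.57 to 4.03 times the control mean of the same array. On every array this was above the 99th percentile of the negative controls, and 52 of 57 unflagged spots were above it. The number of its 10 spots that the software called well above background was 4, 10 and 0 without loading and 10, 1 and 10 with it, so that this call was uneven where the means were close. The dimmer probe had a mean of 2.99, 1.57 and -1.24 units without loading and of 2.15, -0.23 and 1.94 units with it, and none of its spots was well above background. Its mean distance was -1.13 SDs, below the controls on all 6 arrays (limma adjusted p = 0.00114), and with the dimmer probe of each miRNA alone no member lay above the controls.

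**Figure D2:**
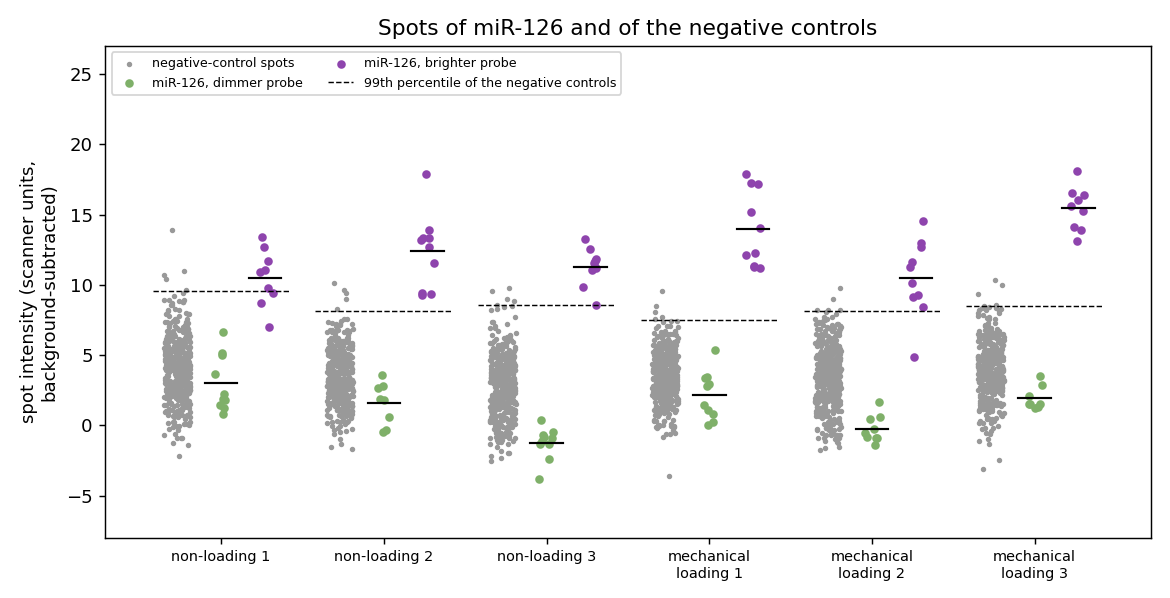
Intensity of single spots in scanner units on the 6 arrays, with outlier-flagged spots left out, for the negative controls (grey) and the dimmer and brighter probes of rno-miR-126; solid lines are probe means and dashed lines the 99th percentile of the controls. The brighter probe averages 10.50 to 15.45 units, above the dashed line on all arrays, and the dimmer probe lies among the controls.

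How firmly rno-miR-126 is called depends on the rule. Limits set on intensity were applied to the brighter probe of each miRNA. rno-miR-126 was above the limit on all 6 arrays with the software's call and with the 95th and 99th percentile of the negative controls. The same held with the highest control probe as the limit and with the 99th percentile of the spots of undetected miRNAs. It fell short on at least 1 array, giving 0 members on all 6, where a majority share of 50% of a probe's spots had to be well above background, where the limit was the control mean plus 3 SDs, and where the 99th percentile was applied with outlier spots kept or to the median signal. The mean of both its probes was 6.75, 5.02 and 5.14 units on non-loading replicates 1 and 3 and mechanical loading replicate 2. These means were under the 95th percentile of the controls there (7.93, 6.26 and 7.05 units), and those of the remaining arrays were above it. rno-miR-126*, the passenger strand cut from the same hairpin, was detected on no array and lay 1.61 SDs below the controls (limma adjusted p = 0.000283). Whether the signal of the brighter probe, which the dimmer probe did not share, came from rno-miR-126 itself was not tested. In total RNA from a whole culture, fewer cells of a type and less of a miRNA per cell cannot be told apart.

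Other miRNAs of the same lineages were read in the same way, as a wider list of 40 names of which 37 were on the array. Of the 37, 32 were detected on no array, 2 on all 6 and 3 on some. The 32 had mean distances of -4.28 to -0.95 SDs, and 0.469% of their 3840 spots were well above background. With the members included, 3 of 47 lineage miRNAs (6.38%) were detected on all 6 arrays, beside 19.6% over the whole array, and 41 (87.2%) on none, beside 71.9%. rno-miR-126 was the only miRNA detected among the 2 endothelial names.

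By lineage, all 10 epithelial companions were undetected, among them rno-miR-200a, rno-miR-200b, rno-miR-141 and rno-miR-429 of the miR-200 family. Of 8 muscle companions, 7 were undetected, rno-miR-133b among them, which differs from rno-miR-133a by G22A (counted from the 5′ end of rno-miR-133a). The exception was rno-miR-1*, the passenger strand of the rno-miR-1 hairpin, detected on 1 array without loading and on 2 with it, having 10 of 120 spots well above background. It lay at 0.23, 1.35 and 0.33 SDs without loading and at 2.10, 0.60 and 1.57 SDs with it (mean 1.03, SE 0.285, limma adjusted p = 0.0106). All 6 values were above the controls while those of rno-miR-1 itself were all below.

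Of 10 neural companions found by exact name, 8 were undetected. rno-miR-128, enriched in brain but made in other tissues too, was detected on all 6 arrays at 10.2 to 15.4 SDs, with 101 of 120 spots well above background. rno-miR-129 was detected on 5 arrays, all but non-loading replicate 3, with a mean of 1.07 SDs (SE 0.189, limma adjusted p = 0.00113). The listed name rno-miR-129* was not matched, but the array holds the strands as rno-miR-129-1* and rno-miR-129-2*, which were added after their values were seen. Both were detected on all 6 arrays, rno-miR-129-1* at 1.53 to 4.35 SDs and rno-miR-129-2* at 4.40 to 9.14 SDs. With them, 4 of 12 neural companions were detected on at least 1 array, and 5 of 49 lineage miRNAs (10.2%) on all 6. Of 3 liver companions, rno-miR-192, which is also made in gut and kidney, was detected on all 6 arrays at 1.48 to 3.01 SDs, whereas its cluster partner rno-miR-194 was undetected.

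Of 5 blood companions on the array, rno-miR-142-5p, rno-miR-144, rno-miR-150 and rno-miR-451* were undetected. rno-miR-223, known from granulocytes and monocytes, was detected on 2 arrays without loading and on 3 with it. It lay at 2.17, 4.50 and 2.43 SDs without loading and at 5.83, 2.85 and 4.96 SDs with it, and the software called 60 of 120 spots well above background. All 6 values were above the controls, with a mean of 3.79 SDs (SE 0.551, limma adjusted p = 0.000393). The blood list thus held 1 detected miRNA and 6 that were not. rno-miR-155 and rno-miR-486 were not matched by name and were not analysed here.

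**Figure D3:**
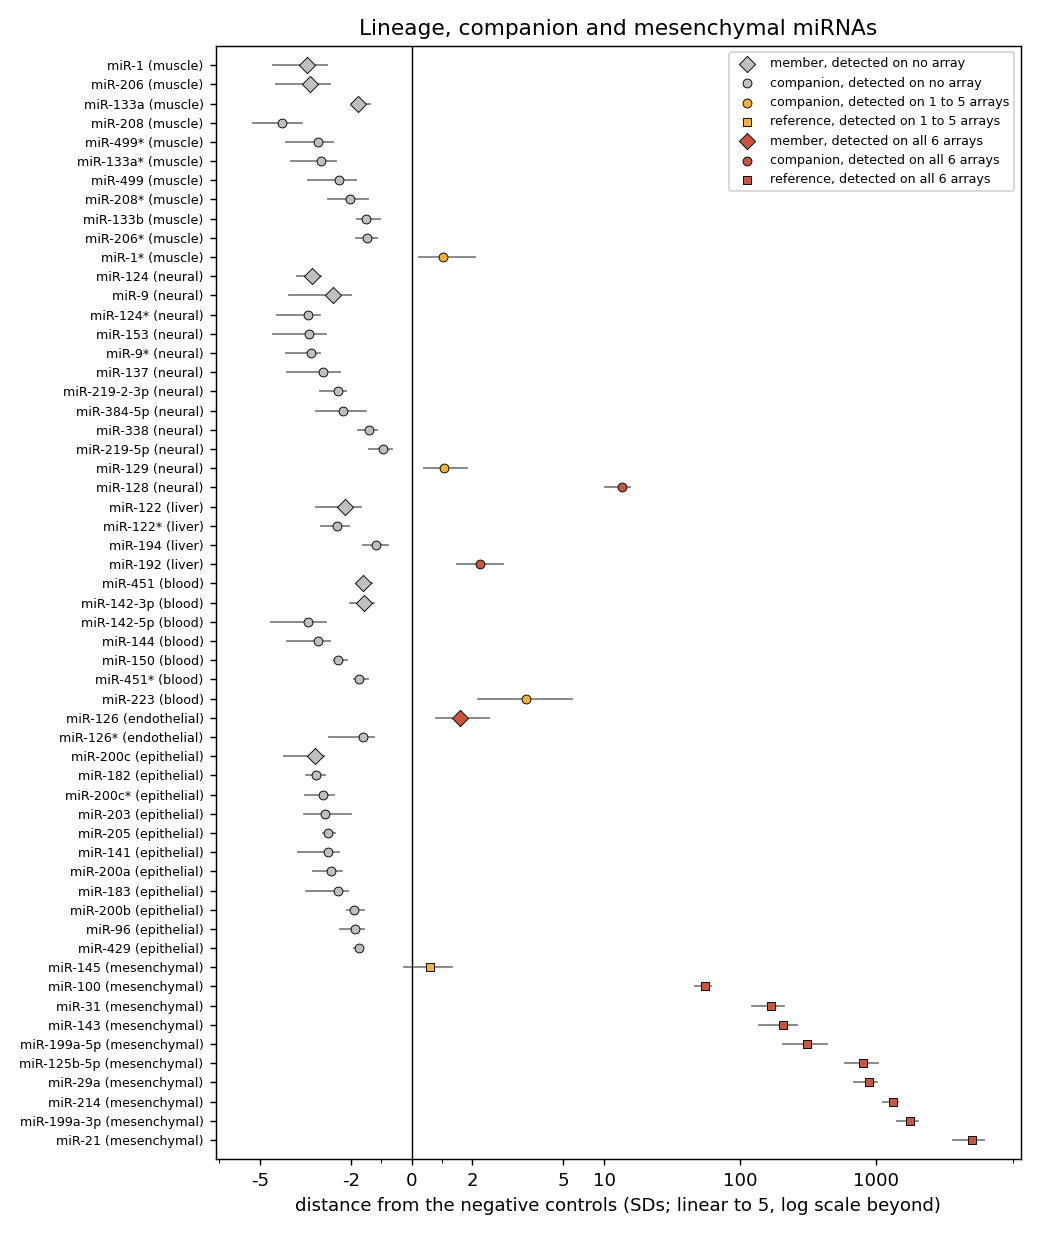
Mean distance from the negative controls over 6 arrays for the 10 lineage miRNAs (diamonds), 37 companions of the same lineages (circles) and 10 mesenchymal miRNAs (squares), in SDs on an axis that is linear to 5 and logarithmic beyond; lines join the lowest and highest array and colour gives the number of arrays with detection. Of the 47 lineage miRNAs found by exact name, 41 are grey, while 9 of 10 mesenchymal miRNAs are detected on all arrays.

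The comparison of mechanical loading with the non-loading group asked whether stretch moved a lineage miRNA. It could be made only where 1 group or both had detection on each of its 3 arrays, a condition met by 148 miRNAs of 677 and by 1 member. The 9 undetected members have intensities and no fold. After scaling each array to the 75th percentile of 173 probes detected on all 6 arrays, the log2 level of rno-miR-126 was -4.35, -4.44 and -5.17 on the non-loading arrays and -4.31, -4.68 and -4.22 on the loading arrays. Non-loading replicate 3 was the lowest, and the groups overlapped. The means were -4.66 ± 0.45 and -4.40 ± 0.24 (SD, n = 3 arrays each).

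The log2 change of rno-miR-126 was 0.25 (SE 0.25, limma adjusted p = 0.724), and the difference was within the spread between arrays. The exact two-sided permutation test over the 6 arrays gave p = 0.5, where 3 arrays against 3 cannot go below 0.1. Of all 148 miRNAs tested, 0 (0.0%) passed an adjusted p of 0.05 in the limma fit and 14 (9.46%) passed an unadjusted p of 0.05, and rno-miR-126 was not among either. Without non-loading replicate 3 its log2 change was -0.0049 (SE 0.16), so the higher level with loading was not seen without that array. With all 6 arrays and another background correction (normexp) its log2 change was -0.58 (SE 0.85). The brighter probe alone gave 0.26 (SE 0.13).

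Of the companions, 4 passed the same filter. The log2 change of rno-miR-223 was 0.40 (SE 0.22, limma adjusted p = 0.709), with a log2 level of -4.01 ± 0.43 without loading and -3.61 ± 0.15 with it (SD, n = 3 arrays each). Without non-loading replicate 3 it was 0.17, and with total gene signal 0.88. The log2 changes of rno-miR-128, rno-miR-129 and rno-miR-192 were -0.07 (SE 0.09), 0.01 (SE 0.22) and -0.03 (SE 0.14). None of the 4 passed the test, and in each the groups overlapped. The same held for the added rno-miR-129-1* and rno-miR-129-2*, at -0.12 (SE 0.20) and 0.11 (SE 0.14).

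**Figure D4:**
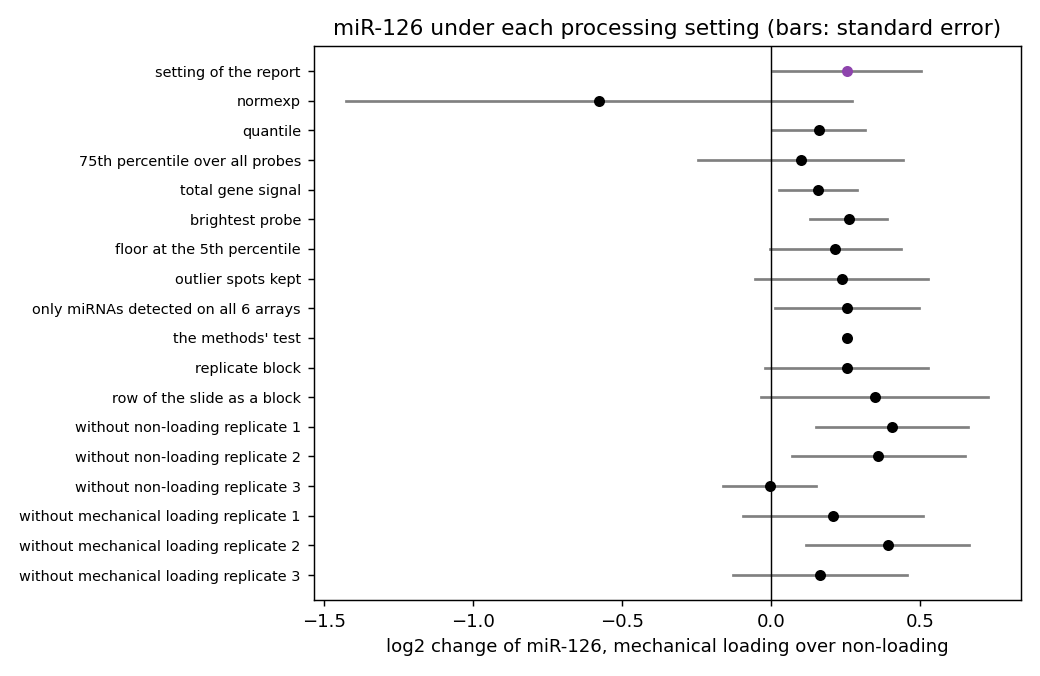
Log2 change of rno-miR-126 in mechanical loading over non-loading rTDSCs under each processing setting, with standard errors as lines (none is drawn for the methods' test); the top point is the setting used in the text. Points lie between -0.58 and 0.41, and the value without non-loading replicate 3 lies at -0.0049.

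Of the 148 tested miRNAs, those whose log2 levels moved most like rno-miR-126 over the 6 arrays were rno-miR-30d (Pearson r = 0.951), rno-miR-92a (r = 0.919) and rno-miR-17-5p (r = 0.906). The 6 points of each share their arrays, their scaling and the low value of non-loading replicate 3. Over all 10 members, the 9 undetected ones each had their lowest mean intensity on that array, whose spots of undetected miRNAs were also the lowest of the 6.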

How the data were processed

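Per the labels, the authors labelled total RNA with Cy3, hybridised it to Agilent rat miRNA arrays and read them with Agilent Feature Extraction 10.7. The values used are the background-subtracted spot intensities that the authors deposited. They came with the software's flags for detection, signal well above background, saturation and outliers (2.93 to 4.17% of miRNA spots, left out of the means). The deposited value table held the same processed spot intensities, with no difference on any array.

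Negative-control distances were the mean of a miRNA's probe means minus the mean of the negative-control spots, over their SD, fitted with limma 3.58.1 in R 4.3.3 against 0. For loading, probe intensities were divided by the array's 75th percentile (262.6 to 362.2 units), summed per miRNA, floored at 1.87% of that percentile (5 of 888 values) and tested on the log2 scale with limma. P-values were adjusted by Benjamini-Hochberg over all miRNAs fitted. The fits were tested on simulated data. Intensities carry no read depth, and 3 arrays per group limit the precision. The members and lists were chosen with earlier results of these data known. All 10 members and every detected companion were named. Alternatives were other detection limits, background corrections, scalings, floors, filters, probe summaries, blocks and left-out arrays.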

Additional observations from a re-analysis of the deposited data

How the results depend on the processing

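The number of members detected on no array was 9 under all alternatives run, and with each array left out. The number detected on all 6 arrays was 0 with the 50% share of spots, with the control mean plus 3 SDs, with outlier spots kept and with the median signal. The number above the negative controls was 4, and below them 4, with the spots of undetected miRNAs as background, where the distances of rno-miR-133a, rno-miR-122, rno-miR-142-3p and rno-miR-451 became 0.57, 0.25, 0.73 and 0.69 SDs, and 0 with the dimmer probe only, where that of rno-miR-126 became -1.13 SDs. At an adjusted p under 0.05, 2 miRNAs were called for loading with the brightest probe, with outlier spots kept, with only miRNAs detected on all 6 arrays and with the methods' test, and 0 with each array left out. The number past an unadjusted p of 0.05 was 0 with normexp, 1 with the percentile over all probes, 8 with total gene signal, 7 with the slide row as a block (log2 change of rno-miR-126 0.35), and 6 to 17 with 1 array left out (7 without mechanical loading replicate 1, 6 without replicate 3). With the replicate block it was 6, and the log2 change of rno-miR-126 was 0.25 (limma adjusted p = 0.850). Deviations of same-numbered arrays correlated at -0.69, -0.47 and 0.11. These values cannot decide whether same-numbered samples shared an animal or culture, which the labels do not say. The fit used in the text did not pair them. The median log2 change over tested miRNAs was 0.06, and it was -0.46 with normexp and -0.09 with the percentile over all probes. With normexp, the log2 changes of rno-miR-126, rno-miR-129 and rno-miR-223 became -0.58, -0.58 and -0.53. That of rno-miR-129 was -0.23 with quantile scaling, -0.15 with all probes and -0.033 with the higher floor, and that of rno-miR-192 was 0.33 with outlier spots kept. With 1 array left out, the log2 change ran from -0.0049 to 0.41 for rno-miR-126, from -0.20 to 0.22 for rno-miR-129, from -0.16 to 0.078 for rno-miR-192, from 0.17 to 0.59 for rno-miR-223 and from -0.13 to -0.012 for rno-miR-128. The cause of these shifts was not tested. All adjusted p-values of these log2 changes were between 0.299 and 0.999.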
